A study of Mus musculus with 43 samples.

Results

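The contractile and myofibroblast genes described here are 10 genes that were read by symbol from the fibroblast table, Acta2, Tagln, Myh11, Cnn1, Des, Actg2, Myl9, Lmod1, Tpm1 and Tpm2, out of 52636 genes in that table. Primary colon fibroblasts from C57B/6 mice, kept in medium with 10% fetal bovine serum, were treated and their total RNA was sequenced in bulk. The samples are marked as day 7. The 19 libraries came from 4 lines, each grown from 1 mouse and named M3, M3(2), M1(2) and M11. M3 and M3(2) are listed by the study as wild-type males of 2 months, and the age and sex of the M1(2) and M11 mice are not given in the sources used here. They were given DMSO vehicle (Ve, n = 4), the multi-kinase inhibitor regorafenib at 4 µM (R4, n = 4) or at 10 µM (R10, n = 3, with no library of line M11), autogramin-2 at 1 µM (A1, n = 4), an inhibitor of the sterol transfer protein GRAMD1A that blocks autophagosome formation, or regorafenib at 4 µM together with autogramin-2 at 1 µM (R4A1, n = 4). The cells came from colon tissue left after the crypts were removed, and they are a cultured population of fibroblasts that was not sorted.

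Smooth muscle cells and activated fibroblasts (myofibroblasts) generate force by sliding actin filaments over myosin. The actin isoforms Acta2 and Actg2 form the thin filament, Tpm1 and Tpm2 (tropomyosins) lie along it, Cnn1 (calponin) and Tagln (transgelin) bind to it, and Lmod1 (leiomodin) nucleates its assembly. Myh11 is the smooth muscle myosin heavy chain, Myl9 the regulatory light chain of myosin, and Des the intermediate filament protein desmin. Acta2 and Tagln are commonly used to mark myofibroblasts in the intestine, whereas Myh11 and Des are better known from mature smooth muscle. Serum response factor (SRF) with its cofactors myocardin and the MRTF proteins binds the CArG box in the promoters of many of these genes.

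The promoters of 7 of the 10 genes were available here from RefSeq (GRCm38.p6, 250 bases before to 50 bases after the annotated start). They are used here because the genes moved together. The sequences used here held no promoter of Tagln, Myh11 or Actg2, so these were not searched. A CArG box, 2 C, 6 bases that are A or T and 2 G, was present in 535 of 32851 promoters (1.63%), and in 1 of the 7 (Myl9). The same motif with 1 G or C among its 6 central bases was present in 8.5% of all promoters and in 2 of the 7, Myl9 and Acta2. Both motifs were searched on both strands, and no promoter position was counted under both. The 2 promoters that held a match are shown in transcription direction, with the matches in capitals.
Acta2, chromosome 19, 34255324 to 34255623, minus strand: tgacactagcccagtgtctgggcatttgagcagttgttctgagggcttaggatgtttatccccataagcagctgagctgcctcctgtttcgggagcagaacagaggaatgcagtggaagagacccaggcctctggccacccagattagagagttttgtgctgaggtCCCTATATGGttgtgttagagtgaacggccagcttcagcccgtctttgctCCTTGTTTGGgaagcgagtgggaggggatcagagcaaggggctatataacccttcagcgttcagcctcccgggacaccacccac
Myl9, chromosome 2, 156775214 to 156775513, plus strand: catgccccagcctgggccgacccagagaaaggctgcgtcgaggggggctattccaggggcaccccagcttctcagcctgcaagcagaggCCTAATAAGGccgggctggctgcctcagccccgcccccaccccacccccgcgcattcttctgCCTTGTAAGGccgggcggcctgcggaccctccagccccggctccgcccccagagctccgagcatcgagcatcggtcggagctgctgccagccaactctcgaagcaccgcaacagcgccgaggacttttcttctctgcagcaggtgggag
The matches in the Acta2 promoter, CCCTATATGG and CCTTGTTTGG, began 84 and 34 bases before the start. Those in the Myl9 promoter, CCTAATAAGG and CCTTGTAAGG, began 161 and 99 bases before it, and the first of them is the full CArG box. The letters CATTCC, the core of the MCAT element, were found on either strand in 3 of the 7 promoters (Lmod1, Tpm1 and Acta2) and in 14.7% of all promoters, and they overlapped none of the CArG matches. Des, Tpm2 and Cnn1 held no match to these motifs in this window. These are matches of letters and no binding was measured.

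Values are given as CP20M, the reads counted for a gene scaled to 20000000 per library, so that values of different genes are compared only after division by the length of their exons. The libraries held 7949965 to 12825919 reads, and 1 read was worth 1.5593 to 2.5157 CP20M. The fibroblast markers Pdgfra, Pdgfrb, Col1a1, Col1a2, Dcn, Lum, Thy1 and Cd34 summed to 106337 to 177683 CP20M, against 35 to 309 CP20M for 7 epithelial markers and 6 to 37 CP20M for 7 striated muscle markers, of which Myod1 was at 0 in all 19 libraries. Macrophage, endothelial and glial markers were present at levels that differed between lines and are given with the pathway lists. Tagln overlaps an annotated gene on the opposite strand, AC122273.2, whose value was 99% to 99.5% of the Tagln value in every library. The strand setting of the counting is not given in the sources used here, so reads of this pair cannot be told apart. No window of 100 bases in the transcripts of Acta2, Actg2 or the other members was shared with another gene, apart from Tagln (48.3% of its windows, with Pcsk7 and the gene on the opposite strand) and Des (3.28%, with Gm15179).

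The genes lie on 7 chromosomes of GRCm38, as annotated by GENCODE. Acta2 occupies chromosome 19 from 34241090 to 34255590 on the minus strand, and Myh11 chromosome 16 from 14194535 to 14291372 on the minus strand. Lmod1 lies on chromosome 1 from 135324807 to 135368065 and Cnn1 on chromosome 9 from 22099216 to 22109630, both on the plus strand. Actg2 lies on chromosome 6 from 83512905 to 83536265 on the minus strand. Values were summed over the exons of each gene, so isoforms, which are many for Tpm1, were not separated.

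By level per kilobase of exon, Acta2 was the highest member in vehicle, with a mean of 16612 CP20M per kilobase and a range of 9810 to 21944 over the 4 lines. Tagln followed at 11740, Actg2 at 7310 and Myl9 at 6634 CP20M per kilobase. Tpm1 (2662), Tpm2 (2009) and Cnn1 (1473) formed the middle of the order, and Lmod1 (280), Myh11 (135) and Des (11.9) its low end. Ranges over lines overlapped for most neighbours in this order, for example 3296 to 10236 for Actg2 and 3610 to 8707 for Myl9. They did not overlap between Myl9 and Tpm1 (1892 to 3062), between Cnn1 (696 to 2390) and Lmod1 (165 to 394), or between Myh11 (67.5 to 255) and Des (5.86 to 14.7). By mean level, Acta2 and Tagln, commonly used to mark myofibroblasts, were thus highest, followed by the smooth muscle actin Actg2 and by Myl9. Myh11 and Des, better known from mature smooth muscle, were lowest, next to the filament nucleator Lmod1. Together the 10 genes took 0.313% to 0.701% of a vehicle library, 0.471% to 1.09% with R4, 0.871% to 1.02% with R10, 0.292% to 0.658% with A1 and 0.487% to 0.932% with R4A1. In bulk libraries, a change in the number of contractile cells and a change in RNA per cell cannot be told apart.

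**Figure D1:**
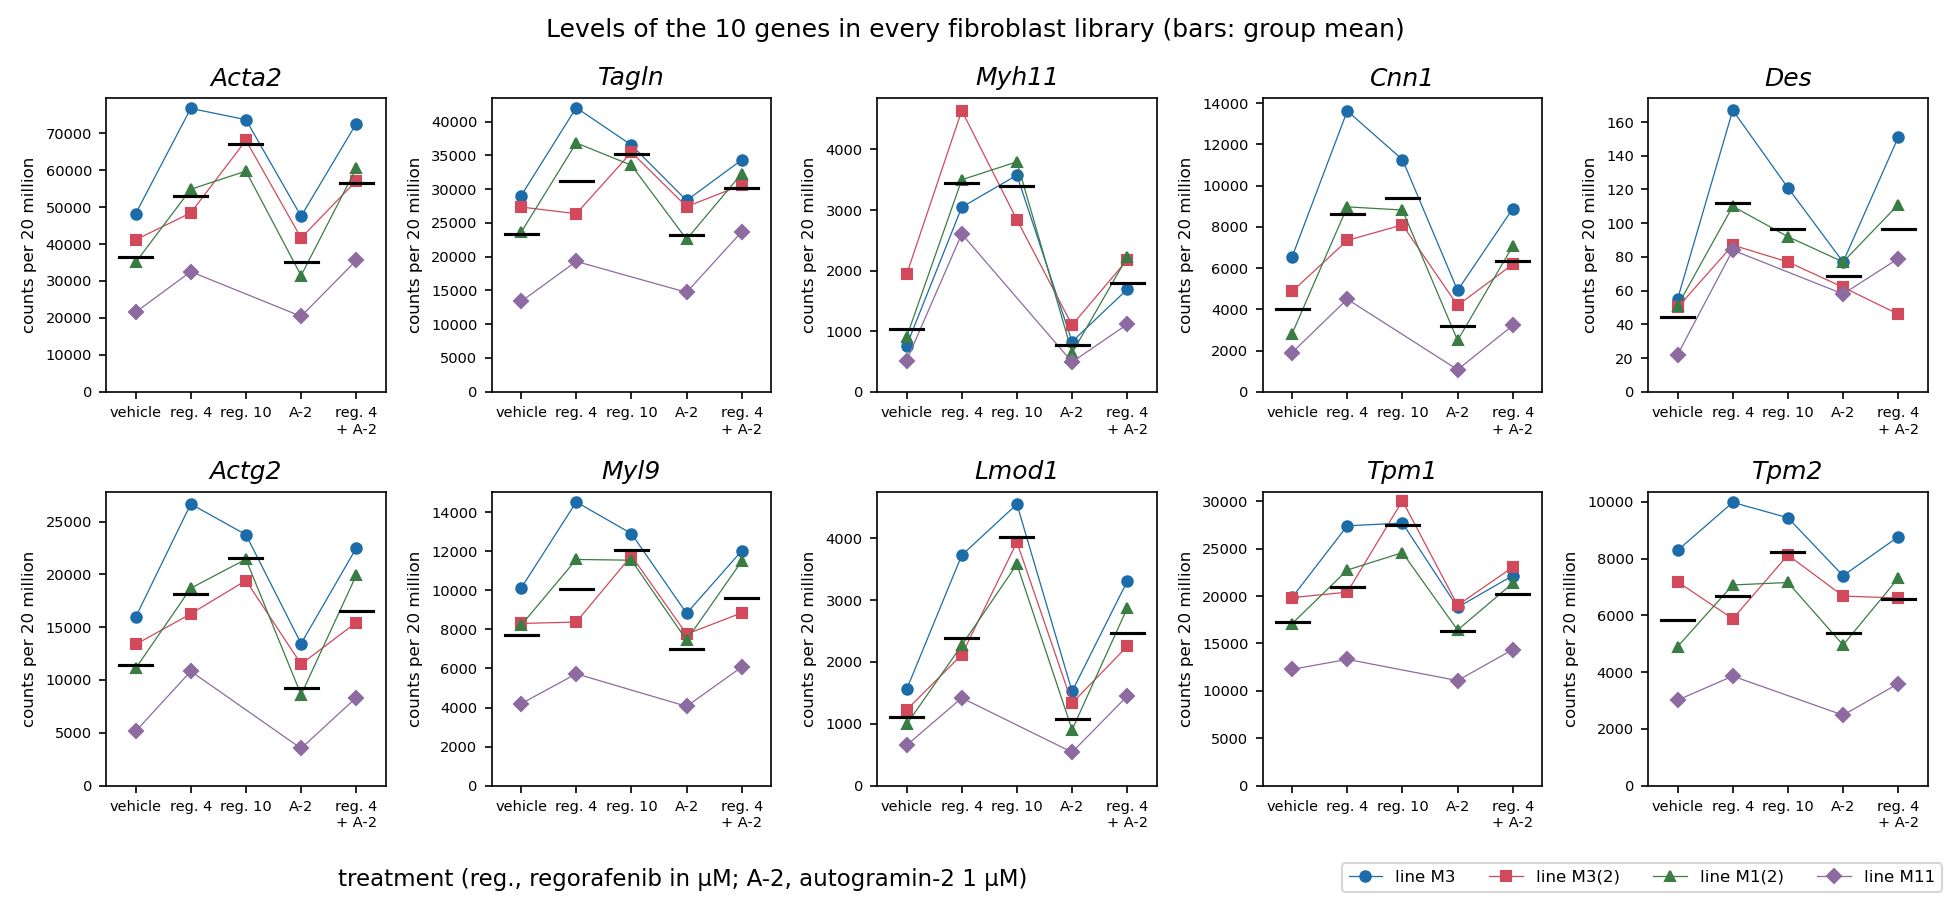
Level of each gene (CP20M, linear axis from 0) in the 19 libraries, by treatment. Each symbol is 1 library, thin lines join libraries of the same line and black bars are group means. Acta2 stood between 59756 and 73680 with R10, above all 4 vehicle libraries (21543 to 48188), and line M11, with no R10 library, was the lowest line in vehicle for all 10 genes.

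To ask whether regorafenib changes the contractile genes of colon fibroblasts, each treatment was compared with vehicle across 11032 genes that reached 200 CP20M in 2 libraries. Of the 10 genes 9 passed this filter, and Des did not. A gene was called when its adjusted p was under 0.05 and its fold change at least 1.5 in either direction (limma with trend on log2 of CP20M plus 20, Benjamini-Hochberg). Since each line came from 1 mouse and was present in each treatment except R10, the fit with the line as a block is given beside the fit without it wherever the call differs. The comparisons with vehicle share the same 4 vehicle libraries.

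With regorafenib at 10 µM the values of all 10 genes were higher than vehicle in each of the 3 lines that received it, beside 29.5% of all genes tested. The vehicle and R10 groups did not overlap for 8 of the 9 genes tested (all except Tpm2), against 12.2% of all genes that were above vehicle without overlap. R10 has no library of M11, the lowest line in vehicle, so a lack of overlap was easier to reach at 10 µM than at 4 µM. With R4, Acta2 was within the vehicle range in M11 (32524 CP20M) and above 48188 CP20M, the highest vehicle value, in the other lines (48445 to 76740 CP20M). Tagln, Myl9 and Tpm2 overlapped vehicle with R4 in M3(2) as well. Without the block, 2 of the 9 rose, Myh11 and Lmod1, beside 3.25% of all genes. With the block, 5 rose, Acta2, Actg2, Cnn1, Lmod1 and Myh11, beside 6.06% of all genes. The median log2 fold change of the 9 was 0.94 without and 0.71 with the block, against -0.04 and -0.03 over all genes tested. Line M11, the lowest in vehicle for every member, enters the vehicle mean and has no R10 library, and folds without the block were larger for all 9. The blocked value takes out the differences between lines. The blocked fit also uses the other M11 libraries, so at 10 µM it need not equal the mean change within lines. For Myh11 the 2 were 1.67 and 1.60.

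Lmod1, the filament nucleator, and Myh11 had the largest changes at 10 µM in both fits. Lmod1 values were 1554 (M3), 1223 (M3(2)), 989 (M1(2)) and 651 (M11) CP20M in vehicle and 4553 (M3), 3938 (M3(2)) and 3580 (M1(2)) CP20M with R10. All R10 values were more than the highest vehicle value. The log2 fold change was 1.91 ± 0.378 (SE, limma adjusted p = 0.00327) without the block and 1.67 ± 0.124 (adjusted p = 3.48e-08) with it. Within lines the log2 change was narrow, from 1.54 to 1.84. Without the block, Lmod1 was not called when line M3(2) (log2 fold change 1.99, limma adjusted p = 0.0561) or line M1(2) (1.96, adjusted p = 0.0641) was left out.

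Myh11, the myosin motor of smooth muscle, held 761 (M3), 1937 (M3(2)), 903 (M1(2)) and 513 (M11) CP20M in vehicle. With R10 it was at 3575 (M3), 2838 (M3(2)) and 3796 (M1(2)) CP20M, above all vehicle values. It rose by a log2 fold change of 1.87 ± 0.365 (adjusted p = 0.00298, limma) without the block, and of 1.67 ± 0.213 (adjusted p = 1.16e-05) with it. Lines differed in this response. The log2 change was 2.05 in M1(2), larger still in M3, and 0.55 in M3(2), the line with the highest vehicle value. Without the block, Myh11 was not called when line M3 (1.74, limma adjusted p = 0.0851) or line M1(2) (1.78, adjusted p = 0.0734) was left out. With line M11 left out, 5 of the 9 were called without the block, beside 4.4% of all genes that rose.

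Acta2, the actin commonly used to mark myofibroblasts, was at 48188 (M3), 41164 (M3(2)), 35029 (M1(2)) and 21543 (M11) CP20M in vehicle. With R10 it was at 73680 (M3), 68099 (M3(2)) and 59756 (M1(2)) CP20M. The groups did not overlap, and the change within lines was even, from 0.61 to 0.77 on the log2 scale. It was called only with the block (log2 fold change 0.71 ± 0.0921, limma adjusted p = 1.30e-05), and without it the value was 0.94 ± 0.334 (adjusted p = 0.0726). Cnn1, which binds actin and slows the myosin motor, behaved likewise, with a log2 fold change of 1.03 ± 0.183 with the block (limma adjusted p = 0.000283) and an adjusted p of 0.0923 without it. Actg2, the second smooth muscle actin, was at 19422 to 23764 CP20M with R10 against 5132 to 15938 CP20M in vehicle (blocked log2 fold change 0.71 ± 0.141, limma adjusted p = 0.000695).

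The remaining genes tested at 10 µM stayed under the fold threshold with the block and missed the adjusted p without it. Blocked log2 fold changes were 0.46 ± 0.121 for Tagln, 0.48 ± 0.0981 for Myl9, 0.52 ± 0.0804 for Tpm1 and 0.31 ± 0.12 for Tpm2, and their limma adjusted p values with the block were 0.0061, 0.000942, 8.10e-05 and 0.0494. Tpm2, a tropomyosin, was the only one of the 9 whose R10 range (7157 to 9439 CP20M) overlapped that of vehicle (3010 to 8291 CP20M). Desmin stayed scarce, at 22 to 55 CP20M in vehicle and at 121 (M3), 77 (M3(2)) and 92 (M1(2)) CP20M with R10, values that stand for few reads. With no filter on low values, its log2 fold change was 0.87 (limma adjusted p = 0.128).

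**Figure D2:**
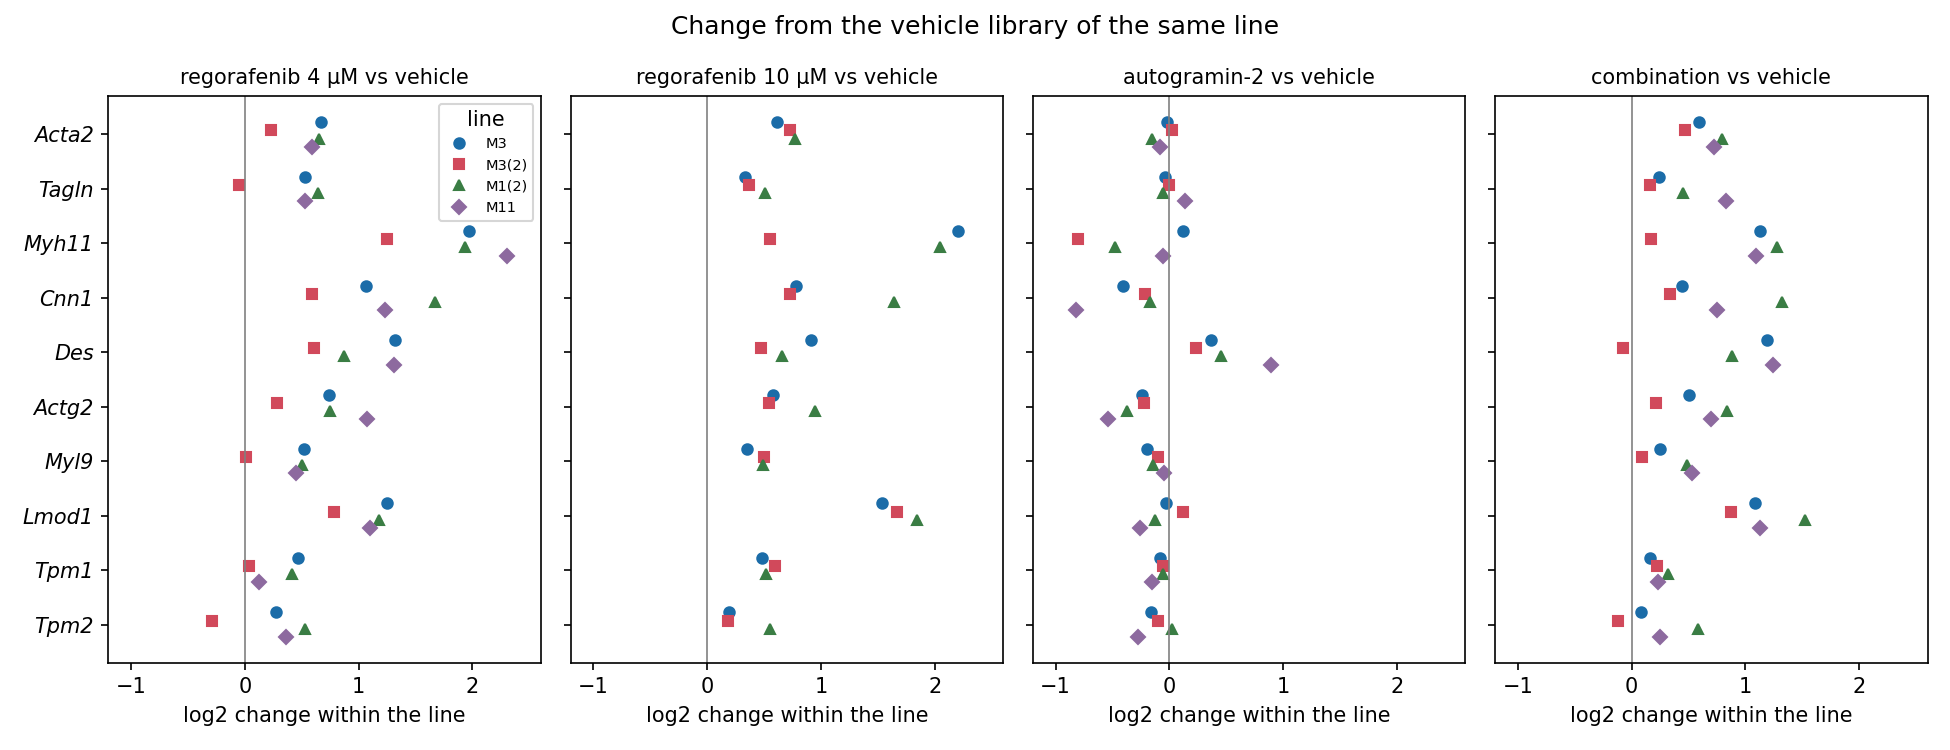
Log2 change of each gene from the vehicle library of the same line, on log2 of CP20M plus 20. Each symbol is 1 line, and panels are the 4 treatments. Regorafenib symbols lie to the right of 0 for nearly all genes, line M3(2) lies lowest at 4 µM (-0.29 for Tpm2, -0.05 for Tagln), and autogramin-2 symbols lie around 0.

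Regorafenib at 4 µM raised Myh11, by about the same log2 fold change as 10 µM. Myh11 was at 3047 (M3), 4642 (M3(2)), 3500 (M1(2)) and 2606 (M11) CP20M with R4, and all 4 values were above the highest vehicle value of 1937, beside 2.86% of all genes that were above vehicle without overlap. The log2 fold change was 1.86 ± 0.338 (limma adjusted p = 0.00854), and it was the 1 member called without the block, beside 0.671% of all genes that rose. The call was lost when line M3 (1.83, limma adjusted p = 0.178) or line M1(2) (1.84, adjusted p = 0.199) was left out and when only these groups were fitted. With the block 4 members rose, Myh11, Cnn1, Lmod1 and Actg2, beside 4.58% of all genes. Their blocked log2 fold changes were 1.86 ± 0.194, 1.14 ± 0.166, 1.08 ± 0.112 and 0.71 ± 0.128, with limma adjusted p from 4.06e-06 to 0.000783. The median of the 9 was 0.54 in both fits, against -0.00 over all genes.

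Cnn1 had the widest spread among lines at 4 µM. It was at 6539 (M3), 4864 (M3(2)), 2813 (M1(2)) and 1903 (M11) CP20M in vehicle and at 13621 (M3), 7342 (M3(2)), 8969 (M1(2)) and 4491 (M11) CP20M with R4. The groups overlapped, but each line was above its own vehicle, by a log2 change from 0.59 to 1.67. Its adjusted p without the block was 0.293. Lmod1 was at 3727 (M3), 2116 (M3(2)), 2270 (M1(2)) and 1417 (M11) CP20M with R4, also above the vehicle of each line, with an adjusted p of 0.158 without the block. Acta2 was at 76740 (M3), 48445 (M3(2)), 54841 (M1(2)) and 32524 (M11) CP20M, and its blocked log2 fold change of 0.54 ± 0.0837 (limma adjusted p = 0.000224) lay under the fold threshold.

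At 4 µM, 7 of the 9 genes tested were above vehicle in all 4 lines, beside 18.6% of all genes. The exceptions were Tagln and Tpm2, which were lower than vehicle in line M3(2), at 26363 against 27358 CP20M and at 5879 against 7180 CP20M. In that line Myl9 (8382 against 8309 CP20M) and Tpm1 (20418 against 19843 CP20M) also stood close to vehicle. Line M3(2) also had the highest endothelial marker sum of all lines, 9596 CP20M in vehicle and 25819 CP20M with R4, and the part of those cells in the smaller changes of this line was not tested. Without the block, leaving out line M11 gave 2 calls at 4 µM, Lmod1 and Myh11, beside 1.33% of all genes that rose.

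**Figure D3:**
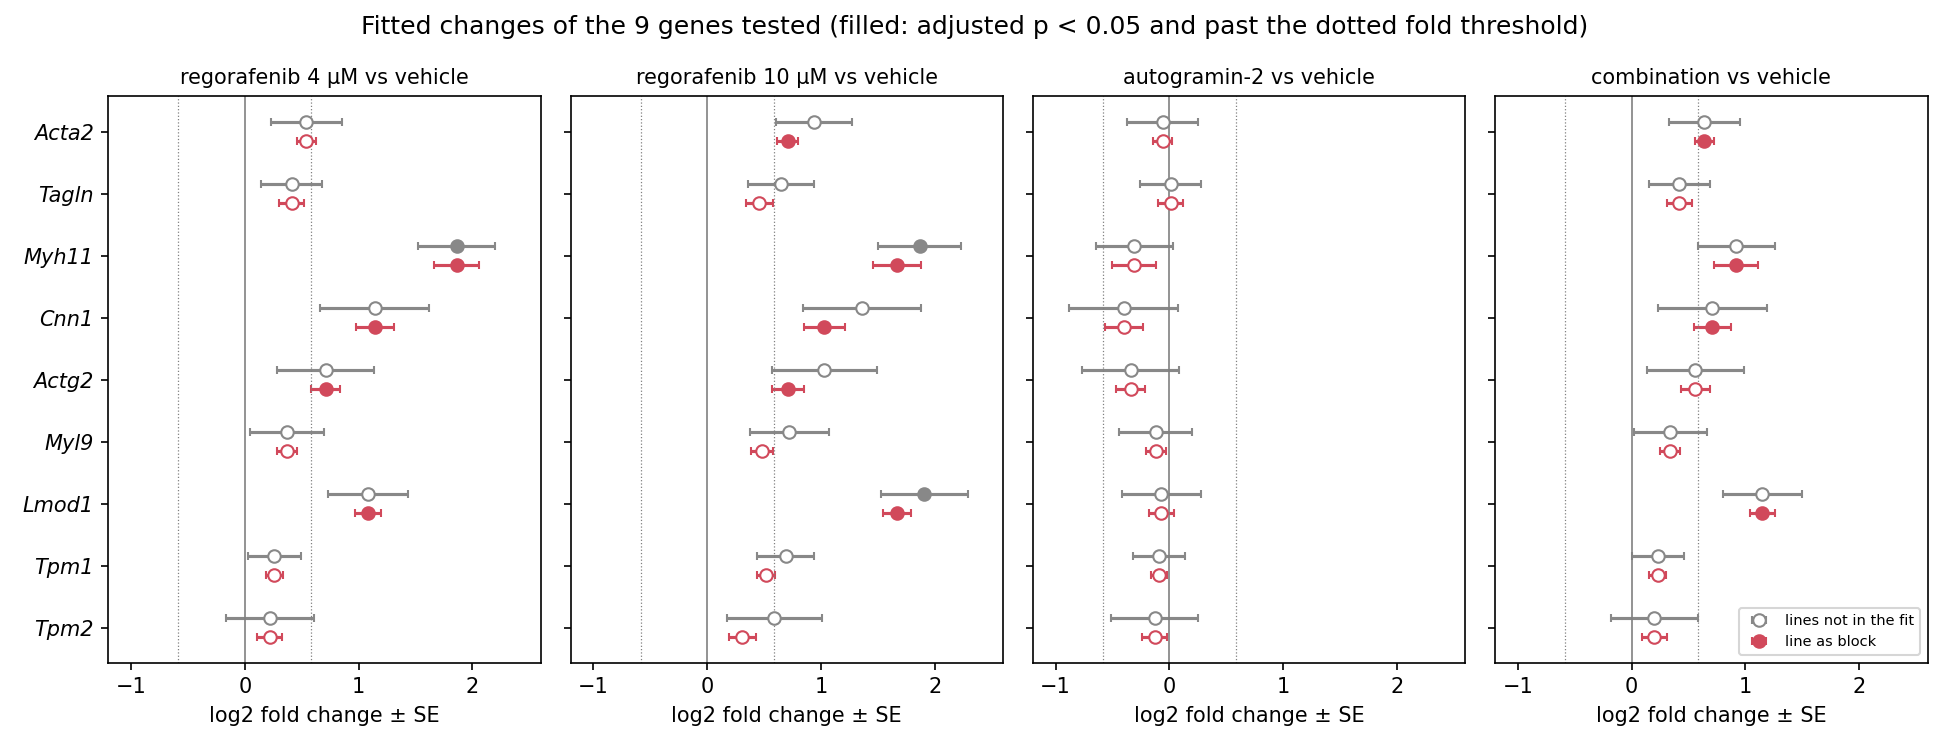
Log2 fold change against vehicle with its standard error for the 9 genes tested, without the line in the fit (grey) and with the line as block (red). Filled symbols passed both thresholds, and dotted lines mark the fold threshold of 1.5. Standard errors shrink with the block, for Acta2 at 4 µM from 0.309 to 0.0837, while estimates move only at 10 µM, where line M11 has no library.

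With the combination, the contractile genes were again above vehicle, but Myh11 rose less. All 4 lines were above their vehicle for 8 of the 9 genes tested (all except Tpm2), beside 18.3% of all genes. No member was called without the block, beside 0.734% of all genes that rose, and 4 were called with it, Lmod1, Myh11, Cnn1 and Acta2, beside 2.66%. Lmod1 was at 3307 (M3), 2253 (M3(2)), 2872 (M1(2)) and 1448 (M11) CP20M, with a log2 fold change of 1.15 ± 0.112 with the block (limma adjusted p = 2.27e-06) and an adjusted p of 0.0887 without it. Acta2 was at 72639 (M3), 57117 (M3(2)), 60536 (M1(2)) and 35575 (M11) CP20M, and its blocked log2 fold change was 0.64 ± 0.0837 (limma adjusted p = 3.85e-05; 0.295 without the block). Cnn1 had a blocked log2 fold change of 0.71 ± 0.166 (limma adjusted p = 0.00471; 0.497 without the block). The median of the 9 was 0.56, against -0.03 over all genes.

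Myh11 was the member that differed between R4A1 and R4. It was at 1692 (M3), 2178 (M3(2)), 2224 (M1(2)) and 1114 (M11) CP20M with the combination, below all 4 values with regorafenib alone (2606 to 4642 CP20M), beside 1.16% of all genes that were below without overlap. Each line was lower, by a log2 change from -1.21 to -0.65, beside 16.1% of all genes that were lower in every line. Without the block the log2 fold change was -0.95 ± 0.338 (limma adjusted p = 0.87), and no member was called, beside 0.00906% of all genes. With the block it was -0.95 ± 0.194 (adjusted p = 0.0187), the 1 member called, beside 1.41% of all genes that fell. When line M11 was left out the blocked value was -0.86 and the call was lost (adjusted p = 0.112). Against vehicle, the combination left Myh11 at a blocked log2 fold change of 0.92 ± 0.194 (limma adjusted p = 0.00238; 0.165 without the block). Cnn1 was also lower than with R4 in all 4 lines, at 8881 (M3), 6181 (M3(2)), 7063 (M1(2)) and 3215 (M11) CP20M, but did not pass the test (blocked log2 fold change -0.42 ± 0.166, adjusted p = 0.148). Lmod1 (0.07 ± 0.112) and Acta2 (0.11 ± 0.0837) had small blocked differences between R4A1 and R4, and their adjusted p values were 0.744 and 0.476.

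Autogramin-2 alone gave no called member, and no called gene in the table. Without the block 120 of 11032 genes had an unadjusted p under 0.05 in limma, and edgeR also called 0, with 116 such genes. With the block limma again called 0, with 823 such genes. The log2 fold changes of the 9 genes lay between -0.40 (Cnn1) and 0.01 (Tagln), with a median of -0.12 against -0.02 over all genes. Actg2, Cnn1, Myl9 and Tpm1 were under vehicle in all 4 lines, beside 14.9% of all genes. Cnn1 was at 4915 (M3), 4189 (M3(2)), 2492 (M1(2)) and 1072 (M11) CP20M with A1, and its blocked log2 fold change was -0.40 ± 0.166 (limma adjusted p = 0.628). Myh11 was at 827 (M3), 1101 (M3(2)), 642 (M1(2)) and 491 (M11) CP20M, within the vehicle range except for M11, which was just under it. Des, not tested at the filter, was the member above vehicle in every line, at 58 to 77 CP20M against 22 to 55. With no filter its log2 fold change was 0.49 (limma adjusted p = 1).

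Between 10 µM and 4 µM of regorafenib, no member was called without the block, beside 0.0906% of all genes that rose, and Lmod1 was called with it, beside 0.997%. Lmod1 was higher at 10 µM in all 3 lines, beside 19.6% of all genes, with a blocked log2 fold change of 0.587 ± 0.124 (limma adjusted p = 0.00517), barely past the fold threshold, and of 0.83 ± 0.378 (adjusted p = 0.392) without the block. Tpm1 was also higher in all 3 lines (blocked log2 fold change 0.26 ± 0.0804, limma adjusted p = 0.0344), under the fold threshold. Myh11 (-0.19 ± 0.213), Cnn1 (-0.11 ± 0.183) and Actg2 had small blocked differences, of either sign depending on the fit. These 2 of 9 are about the share found over all genes. Acta2 was lower at 10 µM than at 4 µM in M3 (73680 against 76740 CP20M).

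Across any treatment, 2 members were called without the block (Lmod1, limma adjusted p = 0.0077, and Myh11, adjusted p = 0.00099), beside 5.17% of all genes, and 5 with it (Acta2, Actg2, Cnn1, Lmod1 and Myh11), beside 16%. The lines themselves differed for each of the 9 genes, with limma adjusted p from 2.63e-08 (Acta2) to 0.000857 (Myh11), beside 68.5% of all genes. Without line M11 the lines still differed for 6 of the 9, beside 37.1% of all genes, and the call was lost for Tagln, Myh11 and Tpm1. Line M11 was the lowest line in vehicle for every gene. Its vehicle library had 13371 CP20M of Tagln and 4195 CP20M of Myl9, whereas M3, the highest line for 8 of the 9, had 29026 and 10117 CP20M. The exception was Myh11, highest in M3(2).

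Genes differed in how much of their variation followed the line and how much the treatment. For Tpm2, 76.4% of the sum of squares of the log2 values went with the line after treatment and 8.14% with treatment after line. For Myl9 these shares were 63.7% and 20.2%, and for Acta2 50.4% and 35.4%. Myh11 stood at the other end, with 12.9% for the line and 74.1% for treatment, followed by Lmod1 with 25.5% and 59.8%. Des had 29.9% and 51.8%, and Cnn1 was nearly even, with 41.6% and 43.6%. The line share was the larger one for the other 6 genes. Neither factor took the remaining 2.63% (Lmod1) to 15.6% (Des), and a part belongs to both factors since R10 lacks a line.

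The members moved together over the 19 libraries. As a description, Pearson's r between pairs of the 9 genes (log2 values) ran from 0.571 (Myh11 with Tpm2) to 0.977 (Cnn1 with Actg2), with a median of 0.926. After the mean of each line was subtracted it ran from 0.730 for the same pair to 0.978 (Acta2 with Lmod1), with a median of 0.899. The libraries share lines and treatments, so these are not independent points. Over all 19 libraries the genes with a pattern most like that of Acta2 were Ctgf (r = 0.976), Gm15270 (0.975), which overlaps Ctgf on the other strand, Actg2 (0.969), AC122273.2 (0.965) and Tagln (0.965). Within lines they were Lmod1 (0.978), Siglecg (0.976), Fhl1 (0.973), Lce1g (0.972) and Ctgf (0.97). For Myh11 they were Popdc2 (0.953), Hmcn1 (0.941), Synpo2 (0.929), Plcb4 (0.924) and Ccdc141 (0.92). Within lines they were Popdc2 (0.975), Csrp2 (0.959), Ppm1l (0.951), Mylk (0.948) and Zdhhc14 (0.944). The genes most like Myh11 and those most like Acta2 had no name in common. The median r over all other genes was -0.078 with Acta2 and -0.021 with Myh11.

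Other genes of the contractile pathway were read from lists of known genes. Some genes, such as Ctgf and Mylk, are on more than 1 list, so the counts of the lists are not independent. At 10 µM, 3.25% of all genes rose and 4.09% fell without the block, and 6.06% rose and 7.71% fell with it, and the counts below stand beside these shares. Of 12 smooth muscle differentiation genes tested, 2 rose and 0 fell at 10 µM without the block, and 7 rose and 1 fell with it. The 2 were Itga8, an integrin of contractile mesenchyme, and Synpo2, an actin-bundling protein. Itga8 was at 242 to 426 CP20M in vehicle, 1089 to 1381 with R4, 1906 to 2931 with R10 and 529 to 935 with R4A1, 4 ranges without overlap. Its log2 fold change was 2.79 ± 0.239 at 10 µM (limma adjusted p = 2.73e-06) and 1.84 ± 0.221 at 4 µM (adjusted p = 0.000257). Against R4, the combination lowered Itga8 only in the fit with the block (log2 fold change -0.65 ± 0.155, limma adjusted p = 0.0361), as it did Myh11, and the adjusted p without the block was 0.87. Synpo2 rose at 10 µM by 2.43 ± 0.422 (limma adjusted p = 0.00138) and at 4 µM by 1.98 ± 0.39 (adjusted p = 0.0146). Both genes also rose with the combination without the block, with log2 fold changes of 1.19 ± 0.221 and 1.69 ± 0.39 (limma adjusted p = 0.00831 and 0.0283). The median of the list was 0.72 at 4 µM and 0.60 at 10 µM without the block.

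Of 13 genes of the myosin motor and its regulators, 3 rose and 0 fell at 10 µM without the block. Ppp1r14a (CPI-17), which inhibits myosin phosphatase, was at 91 to 108 CP20M in vehicle and 569 to 846 with R10 (log2 fold change 2.54 ± 0.311, limma adjusted p = 7.24e-05). It also rose at 4 µM (1.80 ± 0.288, limma adjusted p = 0.00298) and with the combination (1.69 ± 0.288, adjusted p = 0.00456). Myh10, a non-muscle myosin heavy chain, rose by 1.02 ± 0.105 at 10 µM (limma adjusted p = 1.52e-05) and was also called at 10 against 4 µM. Ppp1r12b, a myosin phosphatase targeting subunit, was called without the block (0.73 ± 0.233, limma adjusted p = 0.0476) and fell under the fold threshold with it (0.56 ± 0.0752). The kinase of the light chain, Mylk, one of the genes nearest to Myh11, was called only with the block, at 0.81 ± 0.145 (limma adjusted p = 0.000297; 0.0588 without it). The median of this list at 10 µM was 0.38.

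Of 16 genes of the SRF and MRTF pathway, 3 rose and 0 fell at 10 µM without the block, and 4 rose and 2 fell with it. Myocd, which encodes the SRF cofactor myocardin, rose from 17 to 63 CP20M in vehicle to 180 to 401 with R10 (log2 fold change 2.24 ± 0.454, limma adjusted p = 0.00377), low values throughout. With the block it was also called at 4 µM (1.46 ± 0.149, limma adjusted p = 3.35e-06; 0.102 without the block) and with the combination (1.20 ± 0.149, adjusted p = 2.35e-05; 0.142 without it). Fhl1, a LIM protein, rose by 1.53 ± 0.32 (limma adjusted p = 0.00456) and Ctgf, a matrix-associated target of the MRTF and YAP pathways, by 1.35 ± 0.382 (adjusted p = 0.0255). Srf itself, named after its values were seen, was at 1088 to 1820 CP20M in vehicle and 1714 to 1894 with R10 (log2 fold change 0.22 ± 0.238, limma adjusted p = 0.622). The median of this list was 0.35.

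None of 17 actin filament and focal adhesion genes tested was called at 10 µM without the block. The cytoplasmic actins Actb and Actg1 had log2 fold changes of -0.05 ± 0.214 and 0.18 ± 0.145 (limma adjusted p = 0.914 and 0.483), and Actb was at 64817 to 107222 CP20M in vehicle. With the block 1 gene of the list was called as fallen, the skeletal muscle actin Acta1, and none as risen. The median of the list was 0.29 without and 0.16 with the block, against -0.04 and -0.03 over all genes. Some changes lay under the fold threshold. Cnn3 had a blocked log2 fold change of 0.52 ± 0.057 (limma adjusted p = 2.49e-06; 0.00136 without the block). Flna had 0.39 ± 0.0747 (adjusted p = 0.000511; 0.0849 without it). Tpm3 was lower with R10 (4250 to 4652 CP20M) than in vehicle (4864 to 5950 CP20M). Of 21 myofibroblast matrix and TGF-beta genes, 4 rose and 1 fell at 10 µM without the block. The 4 include Ctgf, already counted with the SRF and MRTF pathway. Postn rose by 2.18 ± 0.706 (limma adjusted p = 0.0486), Tgfb2 by 2.09 ± 0.249 (adjusted p = 6.29e-05) and Tgfb3 by 1.81 ± 0.477 (adjusted p = 0.0176), while the collagen gene Col3a1 fell (-1.43 ± 0.365, adjusted p = 0.015). With the block 7 rose and 5 fell, so this list did not move in 1 direction. Tgfb2 rose at 4 µM as well, from 864 to 1512 CP20M in vehicle to 2673 to 3974 (limma adjusted p = 0.00182).

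**Figure D4:**
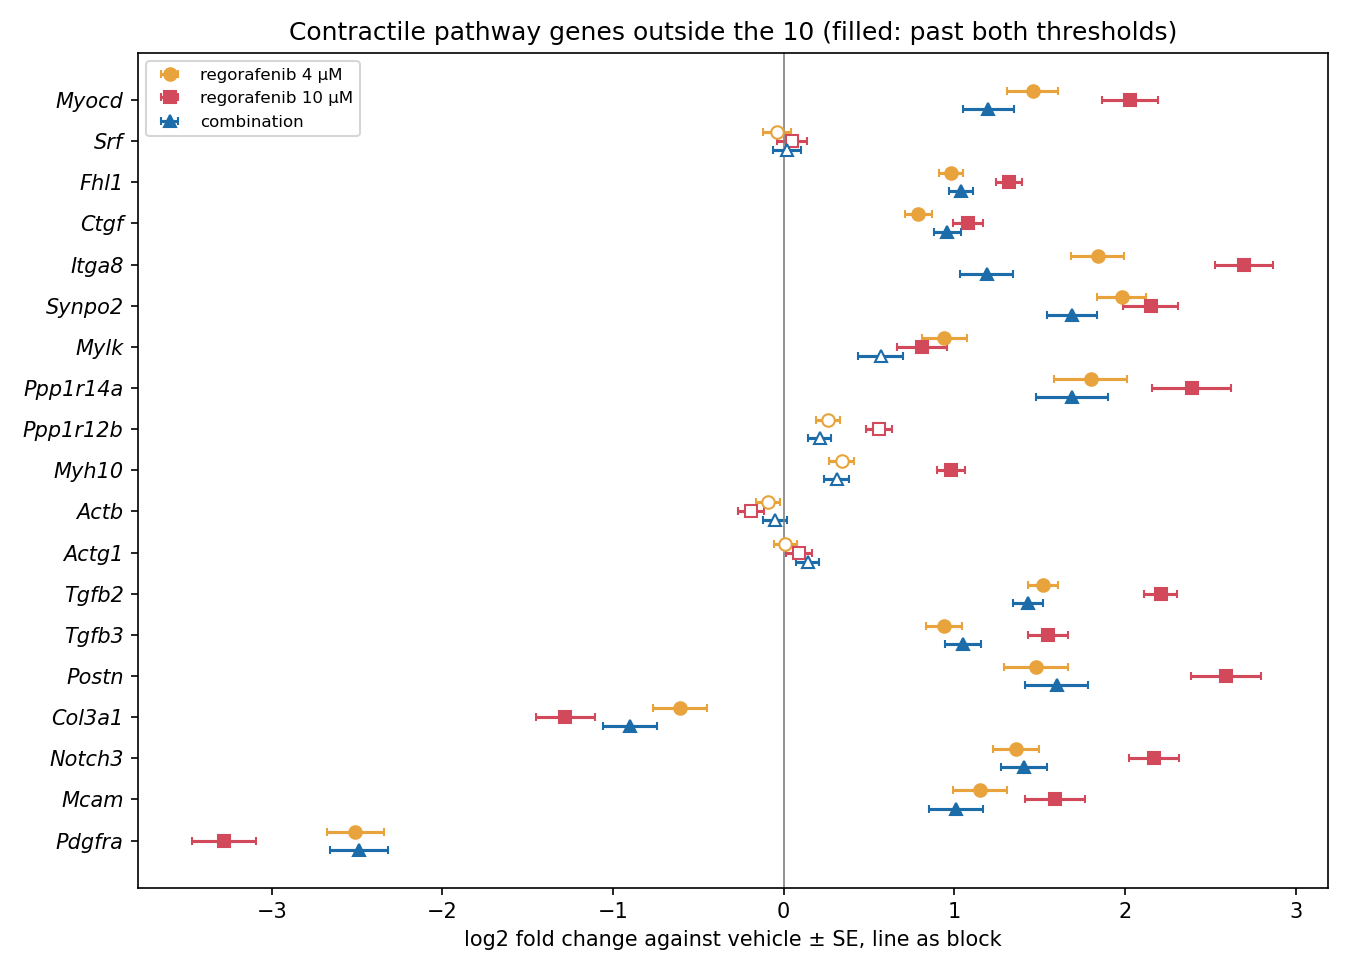
Log2 fold change against vehicle, with its standard error and the line as block, for pathway and marker genes outside the 10. The genes shown were picked by hand from the lists. Among genes called with the block at 10 µM and not shown, Kcnmb1, Ldb3, Synm and Pdlim3 rose, and Npnt, Acta1, Fhl2, Egr1 and Cdh11 fell. Circles, squares and triangles are R4, R10 and R4A1, and filled symbols passed both thresholds. Myocd, Itga8, Synpo2 and Ppp1r14a lie to the right with each of these treatments, Srf, Actb and Actg1 lie near 0, and Pdgfra lies at -3.28 with R10.

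Lists of cell type markers moved in the same libraries. Pericyte markers (7 genes, which include no member) summed to 3147 to 8309 CP20M in vehicle, 7130 to 12517 with R4, 10725 to 14314 with R10 and 7083 to 12370 with R4A1. Only 3 of them passed the filter, and 2 rose at 10 µM, Notch3 (2.08 ± 0.199, limma adjusted p = 6.74e-06) and Mcam (1.40 ± 0.393, adjusted p = 0.0245). Notch3 was at 715 to 1188 CP20M in vehicle and 3074 to 4182 with R10. The third, Cspg4, was lower, at 315 to 413 CP20M with R10 against 474 to 1331 in vehicle (blocked log2 fold change -0.50 ± 0.133, limma adjusted p = 0.0066, under the fold threshold; 0.238 without the block). Rgs5, Kcnj8, Abcc9 and Higd1b stayed at 0 to 19 CP20M in vehicle and with R10, so the sum followed Notch3 and Mcam. Of 8 fibroblast markers, Pdgfra fell without the block at 10 µM (-3.03 ± 0.655, limma adjusted p = 0.0055), from 1499 to 4877 CP20M to 152 to 429, and also at 4 µM and with the combination. With the block 3 of the 8 fell at 10 µM, Pdgfra, Cd34 (-1.97 ± 0.148, limma adjusted p = 3.85e-08; 0.348 without the block) and Col1a2 (-0.70 ± 0.121, adjusted p = 0.000213; 0.0561 without it), and Thy1 rose (1.36 ± 0.216, adjusted p = 9.98e-05; 0.245 without it). The sum of the 8 was 125655 to 133237 CP20M with R10 against 120759 to 165086 in vehicle, and Col1a1 alone made up 80207 to 87934 and 66729 to 99913 CP20M of it. The part of pericytes or other mural cells in the higher contractile values was not tested.

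All 12 cell cycle genes fell at 10 µM. The 4 with the largest changes were Mki67 (-2.34 ± 0.463), Ccnb1 (-2.11 ± 0.35), Top2a (-2.03 ± 0.395) and Plk1 (-2.02 ± 0.351), and their limma adjusted p values ran from 0.000955 (Ccnb1) to 0.00327 (Mki67). Macrophage markers (7 genes) summed to 1062 to 6022 CP20M in vehicle and 587 to 611 with R10, where C1qa was at 0 in all 3 libraries, and Lyz2 fell (-2.60 ± 0.596, limma adjusted p = 0.00806). Endothelial markers (5 genes) summed to 1136 to 9596 CP20M in vehicle, 1838 to 25819 with R4 and 1531 to 6325 with R10. None of the 5 was called without the block, Pecam1 having a log2 fold change of 1.36 ± 0.902 and Cdh5 of 1.14 ± 0.853 at 4 µM (limma adjusted p = 0.564 and 0.629), and all 5 rose at 4 µM with it. Glial markers (4 genes) were highest in line M11, at 12782 to 16342 CP20M against 747 to 6204 in the other lines, and none was called at 10 µM. Of the interstitial cell of Cajal markers, Etv1 fell at 10 µM (-1.32 ± 0.328, limma adjusted p = 0.0127), and mesothelial markers (4 genes) summed to at most 279 CP20M. The part of these cells or of slower division in the contractile values was not tested.

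In the organoid table, which was scaled separately and is only set beside the fibroblasts, most of the contractile genes were low. It holds 24 libraries of colon epithelium at day 6, colonoids with Apc WT and Apc-deficient (floxed) tumoroids, 3 of each with DMSO, with 4 µM regorafenib, with 8 µM regorafenib and with 1 µM 5-FluoroUracil. The Apc allele was deleted by the Villin promoter's tamoxifen-induced Cre. Over all 24, Acta2 was at 0 to 19 CP20M, Myh11 at 0 to 14, Myl9 at 0 to 4 and Lmod1 at 0 to 5, and Actg2 was at 0 in 19 of the 24. Cnn1, Des and Actg2 lay at 0 to 40 CP20M. The value of 40 was reached only in colonoids with 4 µM regorafenib, the group that also held the lowest Tagln value, 40. Read depth was not examined for the organoid libraries, so how many reads such values stand for is not known. Tpm1, whose isoforms are widely used by epithelial cells, was at 3396 to 10040 CP20M, and Tpm2 ran from 4 to 622 and Tagln from 40 to 245 CP20M. The range of Tpm2 was wide within treatments too, 18 to 489 CP20M in colonoids with DMSO and 99 to 228 in tumoroids with DMSO.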

How the data were processed

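RNA was sequenced from 19 fibroblast and 24 organoid libraries of mouse colon. The deposited signal values (CP20M) were made by the authors, who trimmed reads with Trimmomatic 0.36, aligned them to GRCm38 with STAR 2.5.3a and counted them per gene of Ensembl 90 with HTSeq 0.9.1 (versions per the labels and the study's methods), then scaled each library to 20000000 and rounded up. Whether reads were counted by strand is not given in the sources used here. Scaling leaves each value relative to all other genes of its library, and rounding up adds less than 1 CP20M.

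Whole reads were recovered from the steps of the values (99.615% to 99.947% of the values of a library were a whole number of reads rounded up), which gave 7949965 to 12825919 reads per library. Groups followed GEO's labels. 1 library of line M3 with the combination has no line in its title and was placed by its library name. The titles of the Apc-deficient organoid libraries with 5-FluoroUracil say colonoid. These were placed as tumoroids by their library names, which hold KO. M1(2) and M11 are not in the study's table of lines. Each treatment was compared with vehicle, 10 µM with 4 µM regorafenib and the combination with 4 µM regorafenib by limma 3.58.1 (R 4.3.3) with trend on log2(CP20M + 20), over all 5 groups, on 11032 genes with at least 200 CP20M in 2 libraries. Fold changes on this scale understate those of low genes. The fits were also run on counts simulated with known changes. There the line effects were in M11 only and on other genes than the treatment changes. That run therefore cannot decide between the fits with and without the block for these data. Line numbers pair the libraries, as the labels name 1 mouse per line. Deviations from the treatment means had a mean r of 0.719 within lines (0.339 to 0.946 over 36 pairs of libraries). Between lines the mean r was -0.229 (-0.812 to 0.698, 108 pairs), so the ranges overlapped. Subtracting the treatment means by itself lowers r between lines. The fit with the line as block was therefore printed beside the fit without it. None of the 27 pairs of libraries within a treatment differed by as little as counting noise. Alternatives were another pseudocount (1, 100), no filter or 20 CP20M, TMM scaling, edgeR 4.0.16 on the recovered reads, only the groups compared, and leaving out each line. The block with line M11 left out and the block with TMM were chosen after the data were seen.

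The 10 genes and all gene lists were chosen with earlier results of these data known. All 10 genes were named. For each list, at most 4 genes with the largest change among those called at 10 µM were named, or its first 2 where none was called, and the 5 genes nearest to Acta2 and to Myh11. Other names (Acta1, C1qa, Myod1, Srf, Mylk at 10 µM) were chosen after their values were seen. Gene positions came from GENCODE M21 (52403 of 52636 identifiers matched), promoters from RefSeq. SE without the block cover the spread between these libraries within treatments. Those with the block cover only the spread left after line differences are taken out.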

Additional observations from a re-analysis of the deposited data

Results flagged for a closer look

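Of 40 groups of 4 libraries examined (10 genes in 4 treatments), 1 held a library far from the others, where chance gives about 1 in 20. Des in the vehicle library of line M11 was at 22 CP20M, and the other 3 vehicle libraries were at 50 to 55 CP20M. The gap to the nearest value was 0.848 of the whole range of the group, and 22 CP20M stands for few reads at this depth. Line M11 was also the lowest line in vehicle for the other members.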

How the results depend on the processing

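Among the alternatives, those with the line block gained the most calls. With the block, called members went from 1 to 4 at 4 µM, from 2 to 5 at 10 µM, from 0 to 4 with the combination, from 2 to 5 over any treatment, from 0 to 1 between doses and from 0 to 1 between the combination and 4 µM. edgeR on reads with the block gave 4, 5, 5, 5, 1 and 1 in the same order, and TMM with the block 4, 5, 5, 5, 1 and 1. With line M11 left out the block gave 4, 5, 4, 5, 1 and 0. Fitting only the groups compared left 0 at 4 µM. Leaving out 1 line without the block gave 0 to 2 calls at 4 µM, 0 to 5 at 10 µM, 0 to 1 with the combination, 0 to 5 over any treatment and 6 to 9 between lines, the highest count between treatments without line M11 each time. Pseudocounts of 1 or 100, no filter, a filter of 20 CP20M, TMM and edgeR without the block kept every count of calls between treatments. Counts of all genes moved more, for example at 4 µM from 113 to 796 with the block, and at 10 µM from 809 to 1519.

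Of 810 log2 fold changes recomputed, 722 kept their direction and call, 54 gained the call, 7 lost it and 27 changed sign, all of these small and none called. Between 10 and 4 µM, Myh11 was -0.19 with the block, -0.12 with edgeR and the block, -0.12 with M11 left out and -0.15 with TMM and the block, and Cnn1 was -0.11, -0.07, -0.05 and -0.06 in the same order. Actg2 was -3e-05 with the block. Between the combination and 4 µM, Tagln was -0.02 with edgeR and -0.09 with the block and M11 left out, and Tpm2 was 0.01 with TMM, with TMM and the block, and with the block and M11 left out. With autogramin-2, Tagln was -0.03 with the block and M11 left out. Leaving out 1 line gave -0.12 to 0.28 for Myh11 and -0.05 to 0.34 for Cnn1 between doses, -0.09 to 0.11 for Tagln, -0.07 to 0.05 for Myl9, -0.02 to 0.15 for Lmod1, -0.10 to 0.06 for Tpm1 and -0.08 to 0.04 for Tpm2 between the combination and 4 µM, and -0.03 to 0.04 for Tagln with autogramin-2. The cause of these changes was not tested. Depth limits Des, whose highest value was 167 CP20M, and the R10 group has 3 lines.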
